A study of Mus musculus with 2 samples.

Results

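A set of 9 protein kinases of the mitogen-activated protein (MAP) kinase cascades were examined, chosen by name to cover each tier that carries the signal of Toll-like receptor 4: Map3k8 and Map3k7, Map2k1, Map2k3 and Map2k4, Mapk3, Mapk8 and Mapk14, and Mapkapk2. They are 9 of the 55536 annotated genes measured. The data came from 2 total RNA-seq libraries, depleted of ribosomal RNA, of the nucleoplasmic fraction of primary bone marrow-derived macrophages of the mouse strain C57BL/6J. The cells had received lipid A, the part of bacterial lipopolysaccharide that Toll-like receptor 4 recognises, at 100 ng/ml for 25 min. One label names the fraction nucleoplasmic and another nuclear. Both libraries belong to this 1 group and share a donor entry, so each SD measures the spread between these libraries, which may be technical. No untreated group was part of the data analysed here, so all values are levels in treated cells and no response to lipid A was measured.

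In these cascades a MAP kinase kinase kinase (MAP3K) phosphorylates a MAP kinase kinase (MAP2K), which phosphorylates a MAP kinase on a threonine and a tyrosine. In macrophages, the receptor activates the MAP3K called TAK1, the product of Map3k7, and, through the IkappaB kinase complex, the MAP3K called TPL2, the product of Map3k8. Signals then run through MEK to the extracellular signal-regulated kinases (ERK), and through other MAP2K to the Jun N-terminal kinases (JNK) and to p38, whose substrate MK2, the product of Mapkapk2, controls the stability and translation of cytokine mRNAs. These steps act on proteins already present, and the values here are of RNA in the nucleus, not of kinase protein or its activity.

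The gene table held 13506939 estimated counts in replicate 1 and 17932332 in replicate 2, so 0 counts would allow a level of at most 0.222 and 0.167 CPM (counts scaled to a library total of 1e+06), for counting error only. Levels are given in TPM, a count per transcript length scaled to 1e+06 in a library. The macrophage label was checked on markers. All 7 macrophage markers were at 1 TPM or more in both libraries, between 32.97 and 1708.41 TPM. Of 22 markers of neutrophils, lymphocytes, dendritic cells, fibroblasts, erythroid cells and mast cells, 1 was, S100a9 at 1.72 and 1.58 TPM, and the 22 summed to 12.3 and 4.40 TPM, with Cd3e, Hbb-bs and Mcpt4 at 0 in both. In such bulk samples, fewer cells of a type and less RNA per cell cannot be told apart.

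All 9 kinases reached at least 1 TPM in both libraries, a level that 44.5% of protein-coding genes reached. Their median log2(TPM + 1) was 4.64 in replicate 1 and 3.93 in replicate 2, or 4.29 ± 0.50 (SD, n = 2). The median was 3.66 ± 0.38 for the other 55 genes of the 4 tiers, of which only 43 were detected. For protein-coding genes it was 3.40 ± 0.33 over the 9806 detected and 0.67 ± 0.22 over all 22028. Each kinase ranked between the 80.0 and 98.5 percentile of protein-coding genes by TPM. Estimated counts per kinase and library lay between 366 and 5724. The kinases together took 0.0614% and 0.0788% of the counts.

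Gene positions are those of mm10. Both MAP3K members were detected, with Map3k8 the higher. Map3k8 (ENSMUSG00000024235.11, chr18:4331327-4353015, minus strand) had 62.16 TPM in replicate 1 and 53.60 TPM in replicate 2, from 1582 and 2269 counts, or 57.9 ± 6.05 TPM (SD, n = 2). TPL2 is held inactive by the NF-kappaB precursor p105, the product of Nfkb1, until IkappaB kinase phosphorylates p105. The product of Tnip2 is another binding partner of TPL2. Nfkb1 was at 48.13 and 35.15 TPM and Tnip2 at 44.23 and 28.40 TPM, each below Map3k8 in both libraries. Ikbkb, which encodes IkappaB kinase, was at 57.62 and 45.95 TPM. These are totals over all transcripts of a gene. The coding transcript Map3k8-201 alone had 24.72 and 22.34 TPM, below the totals of Nfkb1 and Tnip2. Map3k7 (ENSMUSG00000028284.13, chr4:31964097-32023467, plus strand) had 26.28 and 14.29 TPM, from 1105 and 1188 counts, or 20.3 ± 8.48 TPM; this range overlapped those of Map2k3, Mapk3, Mapk8 and Map2k1. TAK1 works bound to TAB proteins. Of their genes, Tab2 was at 46.39 and 29.18 TPM, Tab1 at 11.98 and 8.24 TPM and Tab3 at 4.24 and 2.88 TPM. Tab2 was thus above Map3k7 in both libraries, and Tab1 and Tab3 were below it in both.

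Of the MAP2K members, Map2k3 was the highest in both libraries. Map2k3 (ENSMUSG00000018932.9, chr11:60932033-60952811, plus strand), whose product MKK3 activates p38, had 20.35 and 23.32 TPM in replicates 1 and 2, from 368 and 638 counts, or 21.8 ± 2.10 TPM. Map2k1 (ENSMUSG00000004936.8, chr9:64185770-64253631, minus strand), which encodes MEK1, the ERK activator that TPL2 phosphorylates, had 14.91 and 12.79 TPM, from 367 and 520 counts, or 13.8 ± 1.50 TPM. Map2k4 (ENSMUSG00000033352.11, chr11:65688243-65788297, minus strand), whose product MKK4 acts on JNK and also on p38, had 13.35 and 10.18 TPM, from 366 and 441 counts, or 11.8 ± 2.24 TPM. The range of Map2k3 lay above those of Map2k1 and Map2k4, which overlapped. By gene-table TPM, Map2k4 was the lowest of the 9 kinases in both libraries. It was not so in the alignment-free table, which the authors made without aligning the reads: there Map2k4 was at 31.6 and 4.82 TPM, above Map2k1 at 9.13 and 2.90 TPM in both libraries.

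Among the MAP kinases, Mapk14 (ENSMUSG00000053436.15, chr17:28691329-28748406, plus strand), which encodes p38alpha, was the highest, with 44.00 and 35.36 TPM from 1531 and 1965 counts, or 39.7 ± 6.11 TPM. Mapk3 (ENSMUSG00000063065.13, chr7:126759601-126765819, plus strand), which encodes ERK1, had 23.93 and 13.18 TPM from 459 and 435 counts, or 18.6 ± 7.60 TPM. Mapk8 (ENSMUSG00000021936.14, chr14:33377898-33447158, minus strand), which encodes JNK1, had 18.64 and 11.93 TPM from 818 and 944 counts, or 15.3 ± 4.74 TPM. Mapk14 stood above both in each library, and the ranges of Mapk3 and Mapk8 overlapped.

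Mapkapk2 (ENSMUSG00000016528.10, chr1:131053700-131097826, minus strand) had 52.25 TPM in replicate 1 and 105.93 TPM in replicate 2, from 1691 and 5724 counts, or 79.1 ± 38.0 TPM, the highest mean and the widest spread of the 9. It ranked 1119 among protein-coding genes in replicate 1 and 323 in replicate 2. By mean TPM the kinases ran Mapkapk2, Map3k8, Mapk14, Map2k3, Map3k7, Mapk3, Mapk8, Map2k1 and Map2k4. Of the 8 neighbouring pairs in this order, only Map3k8 over Mapk14 and Mapk14 over Map2k3 had ranges that did not overlap between the libraries. The ranges of the other 6 pairs overlapped, although Map3k7 over Mapk3, Mapk3 over Mapk8 and Map2k1 over Map2k4 had the same order in both libraries.

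**Figure D1:**
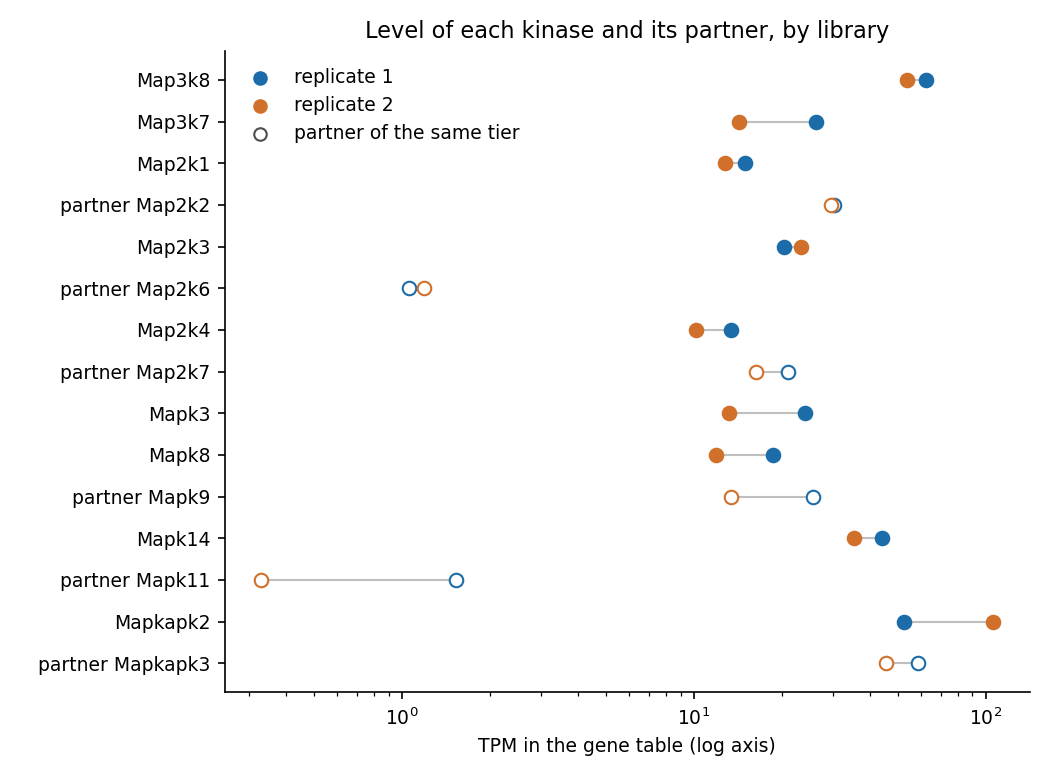
TPM (log axis) of each of the 9 kinases (filled points) and, below 6 of them, of a partner of the same tier (open points), with replicate 1 in blue, replicate 2 in orange and a grey line joining the libraries. Map2k6 and Mapk11 lie at or below 1.53 TPM, far to the left of Map2k3 and Mapk14, and Mapkapk2 has the widest gap between libraries among the 9.

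For 6 of the 9 kinases the level was compared with that of a close relative in the same tier that shares its main substrate or activator. The member exceeded its relative in both libraries in 2 of 6 pairs, both on the p38 route. Map2k3 was at 20.35 and 23.32 TPM, against 1.06 and 1.19 TPM for Map2k6, the other main p38 activator, which had 27 and 51 counts. Mapk14 was at 44.00 and 35.36 TPM, against 1.53 and 0.33 TPM for Mapk11, which encodes p38beta and had 33 and 17 counts. Map2k3 was thus at 19.2 and 19.6 times the TPM of Map2k6, and Mapk14 at 28.8 and 107 times that of Mapk11. Since Mapk11 rested on few counts, its ratio is imprecise.

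The member was the lower of the pair in both libraries in 3 of 6 pairs, those of Map2k1, Mapk8 and Map2k4. Map2k1 was at 0.494 and 0.434 times the TPM of Map2k2, which encodes MEK2 and had 30.17 and 29.47 TPM. Mapk8 was at 0.727 and 0.887 times the TPM of Mapk9, which encodes JNK2 and had 25.64 and 13.45 TPM, and the ranges of Mapk8 and Mapk9 overlapped. Map2k4 was at 0.636 and 0.625 times the TPM of Map2k7, the other JNK activator, at 20.99 and 16.30 TPM, but in the alignment-free table Map2k4 was at 2.96 and 1.54 times Map2k7. Mapkapk2 was at 0.895 times the TPM of Mapkapk3, which encodes another p38-activated kinase, in replicate 1 and at 2.32 times in replicate 2, with Mapkapk3 at 58.39 and 45.61 TPM. In the alignment-free table Mapkapk2 was above Mapkapk3 in both libraries, at 75.2 and 61.9 TPM, against 47.5 and 15.5 TPM for Mapkapk3.

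The rest of each tier was counted from lists of known family members. Of 32 MAP4K and MAP3K genes, 27 were at 1 TPM or more in both libraries, and Map3k8 was the next by mean after Map4k4 (78.22 and 58.49 TPM) and Taok3 (78.03 and 49.10 TPM). All 7 MAP2K genes were detected, led by Map2k2, Map2k5 (26.95 and 17.47 TPM), which encodes the activator of ERK5, and Map2k3. Of 14 MAP kinase genes 8 were detected, led by Mapk6 (92.14 and 94.86 TPM), which encodes the atypical kinase ERK3, followed by Mapk14. The 6 not detected were Mapk4, Mapk10, Mapk11, Mapk12, Mapk13 and Mapk15. This set holds JNK3 (Mapk10) and the p38 forms beta, gamma (Mapk12) and delta (Mapk13), so that Mapk14 was the only p38 gene past 1 TPM in both libraries.

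Of 11 kinases that MAP kinases activate, 10 were detected. Mapkapk2 led by mean, before Mknk1 (81.86 and 69.86 TPM), which encodes a kinase of the translation factor eIF4E, and Mapkapk3, while Rps6ka6 was not detected. In replicate 1 Mapkapk2 was below both Mknk1 and Mapkapk3. Of 15 partners and scaffolds 12 were detected, led by the JNK scaffold genes Spag9 (86.74 and 60.45 TPM) and Mapk8ip3 (81.35 and 56.65 TPM) and then Ikbkb. Ksr2, Mapk8ip1 and Mapk8ip2 were not detected.

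**Figure D2:**
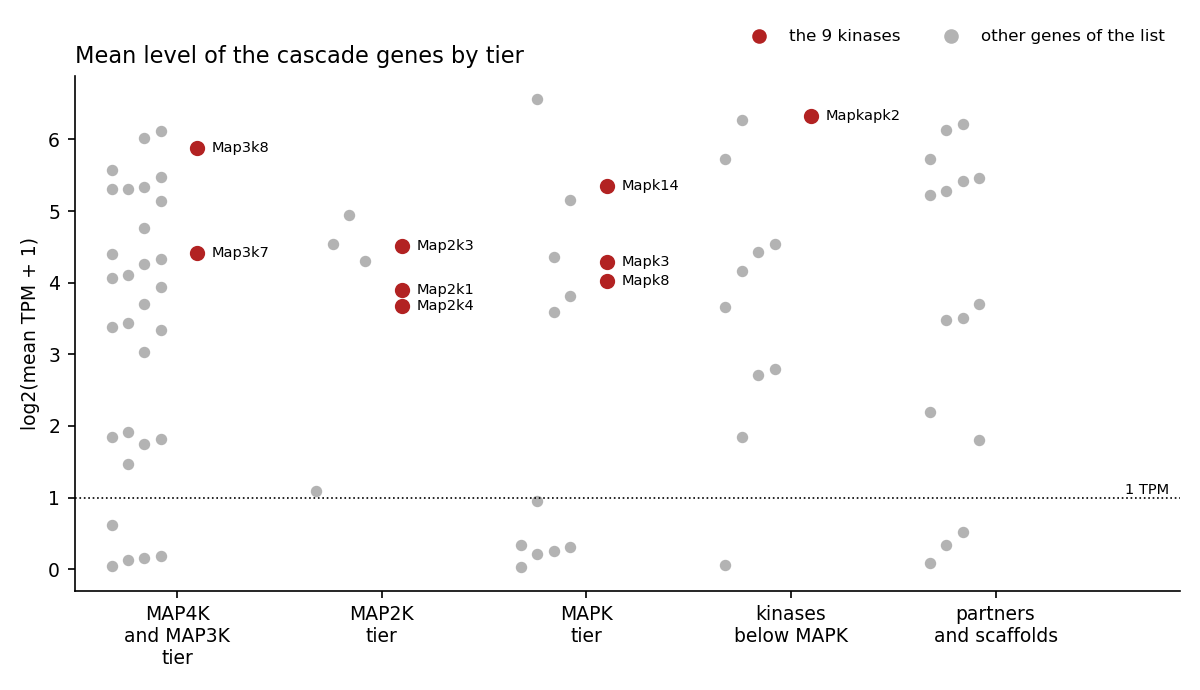
Log2(mean TPM + 1) over both libraries of every gene of the 5 lists, with the 9 kinases in red and the others in grey; horizontal offsets only separate points. The kinases lie between Map2k4 at the low end and Mapkapk2 at the high end, all above the dotted line at 1 TPM, and Mapk6 is the highest grey point of the MAP kinases.

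Map3k7, Mapk8 and Mapk14 each carry a coding exon whose choice alters the protein, and the transcript tables split their reads by it. The exon sequences, from GENCODE M21 transcripts on mm10, show what was told apart. Mapk14 has a pair of mutually exclusive 80-base exons at position 9 of 12, form A at chr17:28737011-28737090 and form B at chr17:28740680-28740759, both on the plus strand. They lie in the sequence for the kinase domain. Capitals mark the 41 bases that differ between the forms, which are 48.75% identical.
Mapk14 form A: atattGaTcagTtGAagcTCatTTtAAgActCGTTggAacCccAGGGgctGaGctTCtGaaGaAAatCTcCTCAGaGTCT
Mapk14 form B: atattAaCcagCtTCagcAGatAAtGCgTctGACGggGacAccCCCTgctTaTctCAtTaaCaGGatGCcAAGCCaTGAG

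Transcripts with form A took 91.7% of the Mapk14 TPM of the 7 transcripts that hold either form in replicate 1 and 87.9% in replicate 2, or 89.8% ± 2.73 (SD, n = 2). Form B took 8.26% and 12.1%. Among the transcripts compared, form A was thus the main form in both libraries. It was also in the alignment-free table, at 84.8% and 80.9%. Mapk14-207, which was not compared, reaches into intron 9 of Mapk14-202, the intron in which form B lies. It had 5.15 and 5.98 TPM, and was above form B in each library and table. The shares may depend on leaving Mapk14-207 out. The form B transcript, Mapk14-201, had 3.21 and 3.56 TPM, and the authors' intervals for it were wide, from 0.843 to 6.63 TPM in replicate 1 and from 1.61 to 6.61 TPM in replicate 2.

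Mapk8 has a pair of mutually exclusive 72-base exons at position 7 of 12 on the minus strand, form A at chr14:33390673-33390744 and form B at chr14:33390242-33390313. These also lie in the sequence for the kinase domain and distinguish JNK1 proteins that differ in their affinity for substrates. Capitals mark the 27 bases that differ, at 62.5% identity.
Mapk8 form A: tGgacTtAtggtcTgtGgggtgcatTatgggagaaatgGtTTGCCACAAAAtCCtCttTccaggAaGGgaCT
Mapk8 form B: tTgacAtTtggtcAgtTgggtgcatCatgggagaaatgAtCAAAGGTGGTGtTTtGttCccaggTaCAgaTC

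Of the TPM of the 4 Mapk8 transcripts compared, each with only 1 of the forms, form A took 61.4% in replicate 1. It took 69.8% in replicate 2, or 65.6% ± 5.96. The alignment-free table gave 50.8% and 55.0%. Both forms were present, with form A above form B in each library and table, but by little in the alignment-free table. The 4 transcripts summed to 7.10 and 4.41 TPM. Mapk8-211, a single unspliced exon that spans both forms, was left out of these shares and had 4.26 and 3.28 TPM.

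Map3k7 has an 81-base cassette exon, the 12th of 17, at chr4:31994874-31994954 on the plus strand. It keeps the reading frame, as the coding sequence is 1818 bases with it and 1737 bases without it. Capitals mark the exon, shown with 12 bases of each neighbouring exon in lower case.
Map3k7 cassette exon: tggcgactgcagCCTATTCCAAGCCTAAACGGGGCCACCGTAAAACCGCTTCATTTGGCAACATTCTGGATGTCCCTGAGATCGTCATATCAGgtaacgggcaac

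Transcripts that keep the exon took 21.5% of the TPM of the 5 Map3k7 transcripts compared in replicate 1 and 40.1% in replicate 2, or 30.8% ± 13.2. The alignment-free table gave 29.9% and 53.9%. Forms without the exon had the larger share in both libraries of the aligned table and in replicate 1 of the alignment-free one. Among the transcripts compared, which include the noncoding Map3k7-209, the libraries differed more in this choice than in those of Mapk14 and Mapk8. Map3k7-207, which was not compared, reaches into the intron after the exon and had 5.42 and 1.27 TPM. The shares, and their difference between libraries, may depend on leaving Map3k7-207 out. Of the coding transcripts, Map3k7-201 with the exon had 3.28 and 3.72 TPM, and Map3k7-202 without it had 10.37 and 5.15 TPM. The authors' intervals of the libraries overlapped for Map3k7-201 and did not for Map3k7-202.

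**Figure D3:**
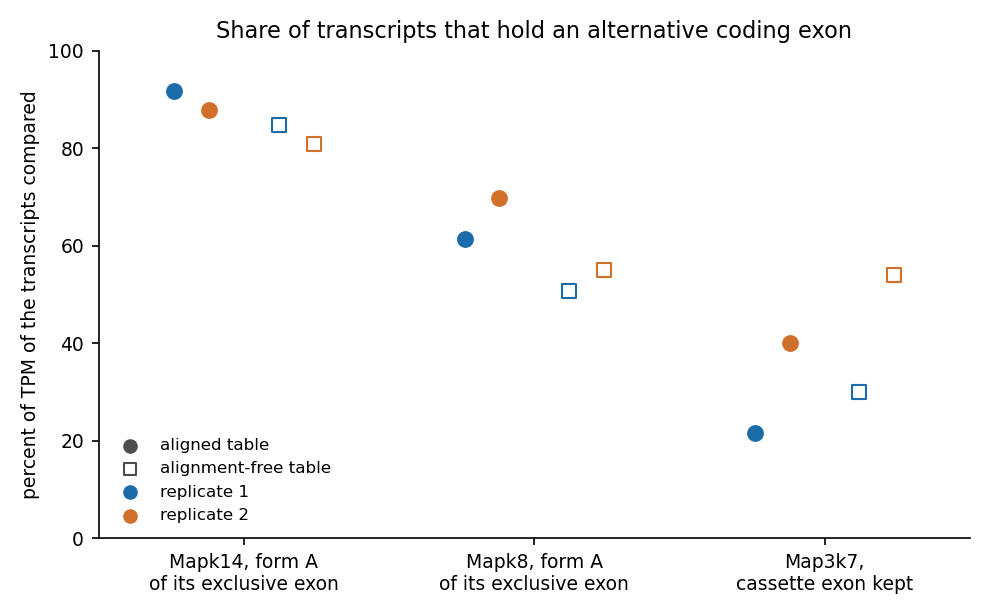
Percent of TPM in transcripts with an alternative exon, of the transcripts compared. The exon is form A for Mapk14 and Mapk8 and the cassette exon for Map3k7. Circles are the aligned table and squares the alignment-free table, with replicate 1 in blue and replicate 2 in orange. Mapk14 lies above 80% in all 4 values, Mapk8 between 50.8% and 69.8%, and Map3k7 between 21.5% and 53.9%.

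Nuclear RNA holds transcripts that are not yet spliced, and the annotation lists some forms that keep an intron. Of the counts of the 9 kinases, 15.7% fell on retained-intron transcripts in replicate 1 and 12.6% in replicate 2, or 14.1% ± 2.16 (SD, n = 2), beside 15.5% ± 0.676 over all protein-coding genes. Of the kinases, 6 have such a transcript and 3 (Map3k7, Map2k4 and Mapkapk2) have none. Mapkapk2 supplied 1691 of 8287 and 5724 of 14124 counts, and without it, an alternative chosen after seeing the data, the share was 19.7% and 21.2%.

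The share was uneven among these 6. Their median was 15.7% ± 2.44, beside 17.0% ± 0.385 over the 6879 protein-coding genes that have such a transcript and counts. Mapk8 had 50.1% and 50.9% of its counts on retained-intron transcripts, or 50.5% ± 0.585, and Map3k8 had 47.9% and 45.7%, or 46.8% ± 1.60. Map2k3 followed with 21.3% and 26.3%, or 23.8% ± 3.54, and Map2k1 with 7.58% ± 1.35. Mapk14 had 1.81% ± 0.651 and Mapk3 1.62% ± 0.267. Mapk8 and Map3k8 thus each had close to equal counts on transcripts with a retained intron and on coding ones, and their shares were steady between the libraries.

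In Map3k8 the retained-intron transcript Map3k8-203 had 28.38 and 21.92 TPM, beside 24.72 and 22.34 TPM for the coding transcript Map3k8-201. Of its 2048 bases, 1526 lie in intron 2 of the coding transcript. A second one, Map3k8-204, reaches into intron 5 and had 7.80 and 9.14 TPM. In Mapk8, Mapk8-207 had 4.71 and 3.25 TPM and reaches into intron 6, and Mapk8-211, a single exon that reaches into introns 6, 7 and 8, had 4.26 and 3.28 TPM. The coding transcript Mapk8-205 had 4.36 and 3.08 TPM, so these 3 transcripts of Mapk8 had similar levels. Mapk8-208, which reaches into intron 3, had 2.58 and 0.99 TPM. Whether such reads came from transcripts that keep only that intron or from unspliced RNA was not tested.

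**Figure D4:**
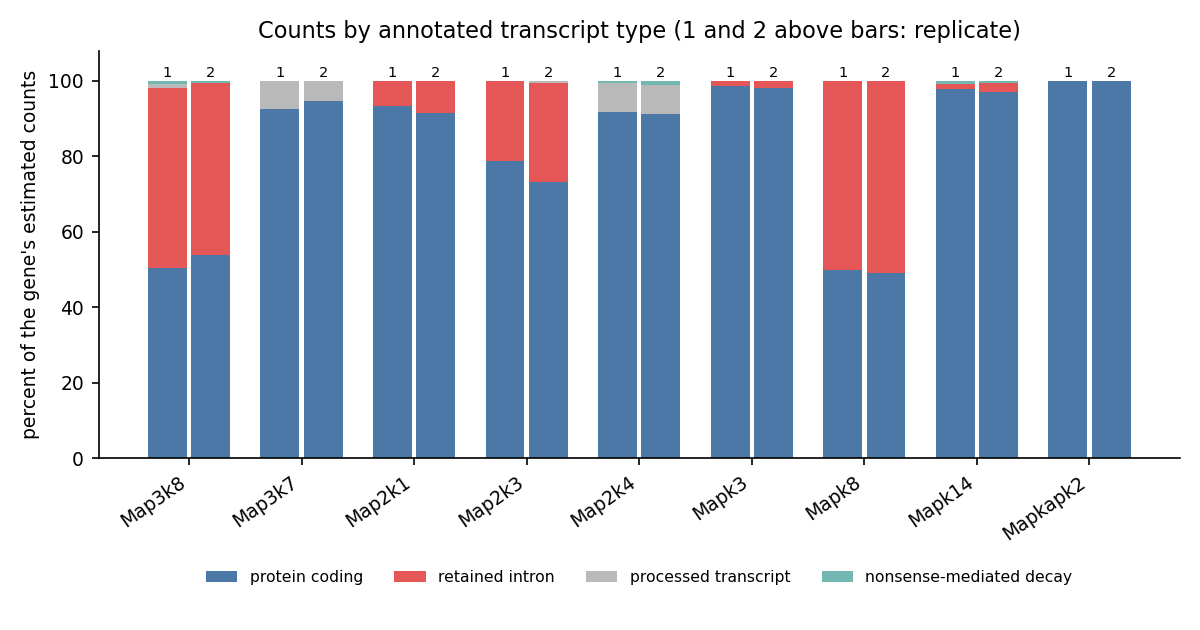
Percent of each kinase's estimated counts by annotated transcript type in the aligned transcript table, with a bar for replicate 1 and for replicate 2. Retained-intron transcripts fill from 45.7% to 50.9% of the bars of Map3k8 and Mapk8, a smaller part of those of Map2k3 and Map2k1, and none of those of Map3k7, Map2k4 and Mapkapk2, for which none is annotated.

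The coding transcripts of the other kinases were led by 1 form in some genes and split in others. Map2k1-201 took 75.6% and 71.9% of the TPM of Map2k1, and Mapkapk2-201 took 87.5% and 85.5% of that of Mapkapk2. Map2k3-201 took 52.5% and 43.3%, and the retained-intron transcript Map2k3-204, which reaches into intron 10, took 27.1% and 26.5%. Map2k4-201 took 50.1% and 46.0%. These 4 genes kept the same leading form in both libraries.

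In Mapk14 the lead changed between libraries. Mapk14-203, with a coding sequence of 849 bases, took 35.7% and 22.8%, and Mapk14-202, with one of 1080 bases, took 30.6% and 33.4%. Their intervals overlapped within each library, from 10.5 to 17.8 TPM and from 6.06 to 16.0 TPM in replicate 1. In Mapk3, Mapk3-203, with a coding sequence of 795 bases, had 17.01 and 6.32 TPM and Mapk3-202, with one of 1140 bases, had 4.76 and 5.46 TPM. The intervals of these transcripts did not overlap in replicate 1 and did in replicate 2. Splitting of reads between such transcripts is an estimate. The leading transcript was the same in the aligned and alignment-free tables for 4 of the 9 kinases (Map3k8, Map2k1, Map2k3 and Mapk3), beside 62.6% of 9537 protein-coding genes.

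The remaining transcripts with at least 5% of their gene's TPM in either library were mostly short or without a coding sequence. In Map3k7, beside the 36.1% to 39.5% of Map3k7-202, the noncoding Map3k7-207 took 20.6% and 8.91%, Map3k7-205 took 13.6% and 12.9%, Map3k7-208 took 7.70% and 13.3% and Map3k7-209 took 6.12% and 2.82%. Noncoding forms of Map3k7 thus held 48.1% and 37.9% of its TPM but 7.41% and 5.22% of its counts, since they are short. In Map2k4, the noncoding Map2k4-206, which reaches into intron 7, took 21.7% and 19.6%, and the short coding Map2k4-204 and Map2k4-207 took 14.5% and 19.1%, and 11.6% and 8.37%. Map2k4-203, a form marked for nonsense-mediated decay, was at 0 in replicate 1 and took 6.90% in replicate 2.

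Retained-intron forms made up most of the others. Map2k1-204, which reaches into intron 8, took 21.8% and 22.0% of the TPM of Map2k1, and Map2k1-202 took 2.57% and 6.07%. Map2k3-206 took 14.4% and 13.9%, and Map2k3-205 took 6.08% and 15.2%. Mapk14-207 took 11.7% and 16.9%, and Mapk3-208 took 9.04% and 7.89%. Shares of TPM were above the shares of counts for these forms, which are shorter than the coding ones. The coding forms left were Mapk14-205, with 14.1% and 16.4%, Mapk8-201, with 11.3% and 9.97%, and Mapkapk2-202, with 12.5% and 14.5%. Mapkapk2-202 was ahead of Mapkapk2-201 in the alignment-free table, with 63.2% and 60.8% of the TPM of Mapkapk2.

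The libraries differed in the level of single kinases. The authors' TPM intervals of the 2 libraries did not overlap for 6 of the 9, and did for Map2k1, Map2k3 and Map2k4, while they did not overlap for 48.1% of protein-coding genes. These intervals cover the estimate within a library and not the spread between libraries. Of the 9 kinases, 7 had the higher TPM in replicate 1, as the median gene did, with a log2 ratio of replicate 1 over replicate 2 of 0.42 over 14584 genes. After that median was subtracted, Map3k7 was at 0.41, Mapk3 at 0.39, Mapk8 at 0.18, Map2k4 at -0.06, Mapk14 at -0.12, Map3k8 at -0.21, Map2k1 at -0.22 and Map2k3 at -0.61. These 8 lay within 2-fold.

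Mapkapk2 was the exception, at -1.43, so it was higher in replicate 2 by more than 2-fold, as 1.22% of genes were and as 1.71% were in either direction. Without the median subtracted, the log2 ratio of TPM + 1 was -1.01, and scaling by DESeq2 size factors or by edgeR's TMM gave -1.62 or -1.59. No kinase was past 2-fold higher in replicate 1, as 0.487% of genes were. Mapkapk2 was within 2-fold in the alignment-free table, at -0.91. By this centred ratio 2.71% of genes there, or 623 genes, were past 2-fold lower in replicate 1. That share cannot be read as genes lower in replicate 1. Adding 1 to TPM and subtracting a median of 1.19 put Mcpt4, at 0 TPM in both libraries, at -1.19. Of these 623 genes, 489 lay between -1.1 and -1.0 and 82 between -1.2 and -1.1. In the alignment-free table Map2k4, at 1.30, was past 2-fold higher in replicate 1, as 3.01% of genes were. The 5.72% of genes past 2-fold in either direction included the 2.71%. The Map2k4 value came with its short transcript Map2k4-204, at 18.6 and 1.21 TPM in that table and at 1.94 TPM in both libraries of the aligned one. Starting RNA was 500 ng in replicate 1 and 1 µg in replicate 2, and its part in these differences was not tested.

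**Figure D5:**
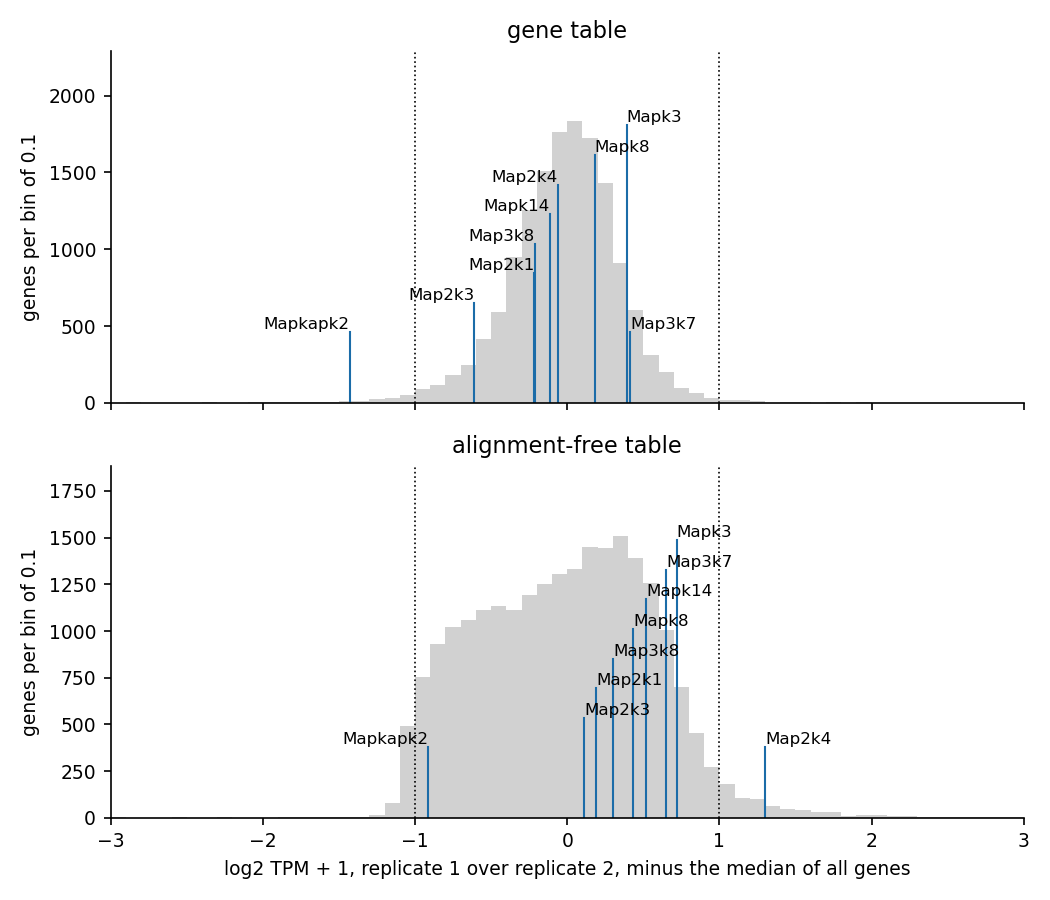
Log2 of (TPM + 1) in replicate 1 over replicate 2, minus the median of all genes, for all countable genes (grey bars of width 0.1) and for the 9 kinases (blue lines, whose height only separates the names), in the gene table and the alignment-free table. In the gene table Mapkapk2 alone lies beyond the dotted lines at 2-fold, at -1.43, and in the alignment-free table Map2k4 alone does, at 1.30.

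The Mapkapk2 locus also held a far larger signal. Gm37084, a gene of the TEC class, in which the annotation puts transcribed regions that await an experimental test, lies at chr1:131086252-131092149 on the same minus strand, inside intron 1 of Mapkapk2 (chr1:131058763-131097288, 38526 bases), and starts 5677 bases from the start of Mapkapk2. It was singled out after its values were seen. It had 19594 and 33341 counts, 11.6 and 5.82 times those of Mapkapk2, and 252.05 and 254.22 TPM, 4.82 and 2.40 times that of Mapkapk2. By counts it was the first of 3219 genes of its class in both libraries. Its ratio between the libraries, minus the median, was -0.44, closer to the median than that of Mapkapk2. Gm37084 covers 15.3% of the intron, and whether its reads come from Mapkapk2 RNA that is not yet spliced was not tested.

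Genes that overlap the other kinases had at most 180 counts. Within Map2k1, Gm48855 on the opposite strand had 172 and 180 counts and Uchl4 had 65 and 88.8. Within Mapk8, the pseudogene Gm49037 on the same strand had 127 and 117 counts. Within Mapk14, AC170998.1 had 38 and 31. None of Map3k8, Map2k3 and Mapk3 overlaps another annotated gene. The sources used here do not say whether counting used strand, so reads of overlapping genes may have been shared between them.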

How the data were processed

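Each library had a gene table and a pair of transcript tables. For the gene table and 1 transcript table the authors derived estimated counts (expected counts) and TPM from transcriptome alignments, on assembly mm10 with annotation M21, as the deposited readme says. The share of its gene's TPM that a transcript holds, in percent, was deposited in this aligned table, and the upper bound of each TPM interval was handled as a deposited signal because such bounds do not sum to 1e+06. For the alignment-free table the authors derived both from reads without alignment, as the deposited readme also says. Quantifiers, interval level and strand use: not given in the sources used here. Spike-in rows and all other rows that name no annotated gene stayed out of totals.

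Here, gene types, coordinates, exons and exon sequences were taken from GENCODE M21 with Python 3.11.15, pandas 2.3.3 and numpy 2.4.6, and figures were drawn with matplotlib 3.10.9. Ratios between libraries used log2(TPM + 1) for genes with at least 10 counts in both, and detection meant 1 TPM in both. Exon shares divide the TPM of transcripts with the exon by that of transcripts spanning it, and 1 Map3k7 transcript with another splice site there was left out. The counting of genes past 2-fold was tried on simulated data with increases well above 2-fold, adding 0.1 and not 1 to TPM. That does not test values near 2-fold, decreases or the alignment-free table. Counts were rounded only for edgeR 4.0.16 TMM factors and DESeq2 1.42.0 size factors in R 4.3.3. With 1 group of 2 libraries no test and no p-value was computed. Named were all 9 kinases, partners of 6, the 3 highest genes of each list (1 gene is not reported here), the binding partners of the MAP3K, and transcripts with at least 5% of a gene's TPM. The kinases and lists were chosen with earlier results of these data known. Alternatives were other tables, scalings, pseudocounts, minimums, and each library alone.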

Additional observations from a re-analysis of the deposited data

How the results depend on the processing

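The number of kinases detected was 9 under every alternative tried. Their median log2 level, 4.29, was 5.84 with CPM, 3.59 in the alignment-free table and 4.79 with TPM rescaled without mitochondrial genes and genes under 200 bases. The retained-intron share, 14.1%, was 24.7% as the mean share of TPM over kinases and 20.4% without Mapkapk2, an alternative chosen after seeing the data. The number of kinases with the same leading transcript in both tables, 4, was 7 by highest count, and the number above their partner, 2, was 4 in the alignment-free table. CPM is not per length, the rescaling left out 31.0% of TPM in replicate 1 and 29.9% in replicate 2, and Mapkapk2 has no retained-intron transcript. Beyond that, the cause of these shifts was not tested. With each library alone, the detected number was 9 and 9, the median level 3.93 to 4.64, the retained-intron share 12.6% to 15.7%, the same leading transcript 5 and 5 kinases, and the number above the partner 2 to 3. The number past 2-fold between libraries was 1 throughout. In the alignment-free table the gene was Map2k4 and not Mapkapk2, although the counts of Mapkapk2 there were 4326 and 11999. The alignment-free table also turned the order of Map2k4 and Map2k7 in both libraries. There the sign of the centred ratio between libraries turned for Map3k8, Map2k1, Map2k3, Map2k4 and Mapk14, all within 2-fold by gene-table TPM. That ratio adds 1 to each TPM, and no other value was tried in that table. By its counts, Map3k8 (2843 and 3155), Map2k1 (582 and 679) and Map2k3 (883 and 1086) were still higher in replicate 2. Map2k4 (1019 and 765) and Mapk14 (2639 and 2581) were higher in replicate 1.

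Mitochondrial genes and genes under 200 bases took 31.8% of alignment-free TPM in replicate 1 and 76.0% in replicate 2, so levels of replicate 2 are low there. Mapk11 and Map2k6 rest on 17 to 51 counts, and the authors' intervals are wide for transcripts of Mapk14 and Mapk3. No paired analysis was possible because both libraries belong to 1 group.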
